A study of Mus musculus with 32 samples.

Results

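Kit and Flt3 are the receptor kinases through which blood-forming progenitors receive stem cell factor and Flt3 ligand. Their chromatin was followed here as regions counted by ATAC-seq, an assay in which the transposase Tn5 cuts open DNA, in mouse progenitors of 9 developmental groups and in 2 short cultures. A region was assigned to a gene when its midpoint lay inside the gene's mm10 span, or within 50 kb of it with no other named protein-coding gene nearer. Kit had 16 and Flt3 10 of the regions counted in the developmental libraries, 26 of 99037 in all. Kit had 21 and Flt3 18 of those counted in the cultured libraries, 39 of 147852. Kit lies on the plus strand at chr5:75574987-75656722 and Flt3 on the minus strand at chr5:147330741-147400489. Regions whose edge came within 1 kb of either end of the span were called gene-end regions, and all others, inside the gene body or between genes, were called distal. Flt3 has close neighbours: 13 more regions of the developmental table lay within 50 kb of it but nearer to Cdx2, Urad or Pan3, and they were left out, while 0 regions near Kit were left out in this way. All 26 developmental and all 39 cultured regions passed the filter on low counts and were tested.

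Both receptors belong to the class III family of receptor tyrosine kinases. Ligand binding brings a pair of receptor molecules together, which phosphorylate each other and recruit adaptors, phosphatidylinositol 3-kinase and SRC-family kinases, while CBL ubiquitin ligases and the phosphatases SHP-1 and SHIP-1 limit the signal. Kit marks haematopoietic stem and early progenitor cells and is kept at a high level by mast cells, and melanocytes carry it too. Flt3 appears as multipotent progenitors lose long-term self-renewal and turn towards lymphoid and dendritic cell fates.

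All cells were C57BL/6 and are labelled LSK, the usual name for a gate on lineage-negative, Sca-1-positive and Kit-positive cells, so Kit protein was itself a criterion of the sort in every group. The developmental groups were E12.5 PL, E12.5 FL and E16.5 FL from embryos, and perinatal, 1w, 3w, 4w, 6w and 8w BM after or around birth, with 3 libraries each and 2 for 3w BM. The labels spell out neither PL, FL nor BM. The cultures held E12.5 FL cells for 2 h, either in basic medium (SHI) or in medium that E16.5 hepatocytes had conditioned, labelled co-SHI, with 3 libraries of each. The labels name no genotype, transgene or knockout. The labels do not say whether libraries came from separate animals or pools, so every p-value measures the spread between these libraries, which may be technical. Total counts ran from 2845113 to 10167340 per developmental library and from 7512258 to 20092146 per cultured library. Levels are counts per 1000000 counts of a library (CPM) after scaling by the trimmed mean of M-values (TMM), on which 1 count was worth 0.101 to 0.356 CPM in the developmental and 0.049 to 0.133 CPM in the cultured libraries. Library 3 of 8w BM carries E12.5 in its stage field although its title names 8w BM, and 8w results are also given without it. Ptprc, the gene of CD45, a surface phosphatase of nearly all blood cells, had 44.5 ± 5.18 CPM (SD, n = 3) over its regions in E12.5 PL and 113 ± 10.6 CPM (n = 3) in E12.5 FL. Ly6a, which encodes Sca-1, had 4.81 ± 0.687 CPM in E12.5 PL and 1.86 ± 1.24 CPM in E12.5 FL, and its BM means lay between 1.45 CPM (6w BM) and 3.25 CPM (perinatal BM).

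The promoters are shown because the region at each gene's start had the highest mean level of its locus and because 1 of these 2 start regions, that of Flt3, passed the test for any difference between the 9 groups. Each line holds the 250 bases before the RefSeq start (GRCm38.p6), 5′ to 3′ on the gene's strand, at chr5:75574737-75574986 for Kit and chr5:147400490-147400739 for Flt3. Capitals mark the matches to 10 short motifs that were searched on both strands.
Kit: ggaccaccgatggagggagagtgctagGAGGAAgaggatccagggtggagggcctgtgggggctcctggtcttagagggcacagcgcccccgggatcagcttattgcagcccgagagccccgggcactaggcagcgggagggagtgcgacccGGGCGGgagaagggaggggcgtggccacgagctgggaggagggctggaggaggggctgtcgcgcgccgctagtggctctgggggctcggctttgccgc
Flt3: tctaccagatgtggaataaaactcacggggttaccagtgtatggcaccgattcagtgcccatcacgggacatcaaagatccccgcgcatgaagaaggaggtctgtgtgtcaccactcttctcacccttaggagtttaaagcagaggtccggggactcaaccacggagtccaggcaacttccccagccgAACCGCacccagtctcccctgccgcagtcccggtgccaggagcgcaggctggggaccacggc

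The Kit promoter was 70.8% G or C, above 92.1% of 27025 RefSeq promoter windows of the same length, and held 17 CG dinucleotides. The Flt3 promoter was 59.2% G or C with 13 CG dinucleotides, against a median of 52.0% over all promoters. In the Kit window GAGGAA, a core of PU.1 sites found in 23.1% of all promoters, began 223 bases before the start. The SP and KLF core GGGCGG, found in 32.9%, began 98 bases before it. In the Flt3 window the MYB core AACNGC, found in 29.9%, began 62 bases before the start. The GATA cores AGATAA (10.3% of promoters) and TGATAA (8.2%), the RUNX core TGTGGT (14.2%) and the E-box CAGCTG (12.8%) had no match in either window. Neither did the ETS core CCGGAA (12.2%), the AP-1 core TGANTCA (6.9%) or the HOX core TGATTTA (2.8%). A match is only a run of letters, and none of these was tested as a site. The Kit start region (chr5:75574665-75575238) covers all 250 bases of its window and the Flt3 start region (chr5:147400103-147400656) covers 167 of them.

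Summed over its 16 regions, Kit was most open in E12.5 PL, with 142, 181 and 157 CPM in the 3 libraries (160.1 ± 19.3 CPM, SD). In E12.5 FL the libraries had 78.6, 64.4 and 96.4 CPM (79.8 ± 16.05), and in E16.5 FL 80.6, 90.6 and 94.4 CPM (88.5 ± 7.13). The highest library of any other group had 98.8 CPM, and the means of the BM groups lay between 79.1 CPM in 4w BM and 85.8 CPM in 3w BM. Ordered by mean, each of the 8 groups below E12.5 PL overlapped its neighbour, so past E12.5 PL the order of groups is not resolved.

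Flt3 ran the other way. Its 10 regions summed to 50.3, 50.6 and 56.5 CPM in E12.5 PL (52.5 ± 3.47), to 149, 156 and 161 CPM in E12.5 FL (155 ± 6.00) and to 123, 141 and 133 CPM in E16.5 FL (132 ± 8.92). The BM groups were higher, from 203 ± 20.7 CPM in 4w BM to 230.0 ± 5.93 CPM in 6w BM. Perinatal BM had 185, 242 and 196 CPM and 8w BM had 207, 233 and 196 CPM. On the TMM scale the groups thus formed 4 steps with no overlap between neighbouring steps: E12.5 PL, E16.5 FL, E12.5 FL and the 6 BM groups, which overlapped each other. The upper steps are less sure than this order. The E16.5 FL and E12.5 FL sums did not differ by the test. The call of 8w BM against E12.5 FL was lost on total counts and with loess offsets. The Flt3 sum divided by the Kit sum was 0.331 ± 0.0440 in E12.5 PL, 1.99 ± 0.387 in E12.5 FL and between 2.51 and 2.87 as group means in BM. That ratio depends on how many regions of what width each locus has and is given only as a description. With fragments counted from a bulk of cells, a smaller share of cells with an open locus and a less open locus in every cell cannot be told apart.

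**Figure D1:**
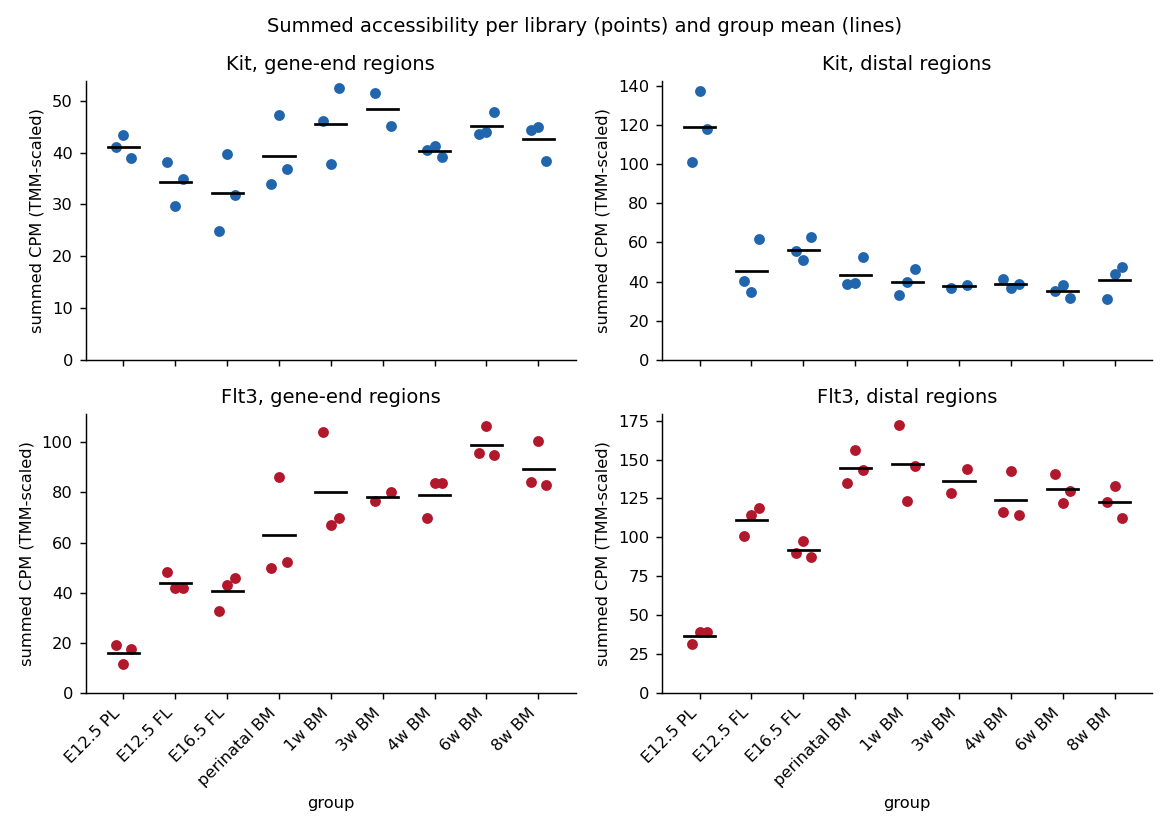
Summed TMM-scaled CPM (vertical axis) of the gene-end and the distal regions of Kit and Flt3 in each developmental library (points), by group, with group means as lines. Kit distal regions stand at 101 CPM or more in the E12.5 PL libraries and at 62.6 CPM or less in all others, while both kinds of Flt3 region are lowest in E12.5 PL.

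The 2 loci are built differently. Kit has few strong regions. Over the 9 group means its start region averaged 23.5 CPM and a region at 0.8 kb (chr5:75575536-75576088), still within 1 kb of the start, 17.5 CPM. The next strongest was distal, at 120.3 kb and so past the gene's 3′ end (chr5:75695039-75695631), with 8.97 CPM, followed by regions in the gene body at 14.9 kb (6.55 CPM) and 65.8 kb (5.66 CPM). The other 11 Kit regions averaged between 0.978 and 5.41 CPM. Flt3 has a strong start region, at 60.0 CPM, and strong body regions at 34.0 kb (chr5:147366230-147366827, 38.2 CPM), 59.3 kb (chr5:147340908-147341519, 23.5 CPM), 7.6 kb (16.9 CPM) and 37.2 kb (13.7 CPM). Its other 5 regions averaged between 2.25 and 10.9 CPM, among them the gene-end region at 68.7 kb, near the 3′ end, with 5.52 CPM. Distances are from the gene's start in the direction of transcription to the middle of the region, and negative values lie upstream.

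**Figure D2:**
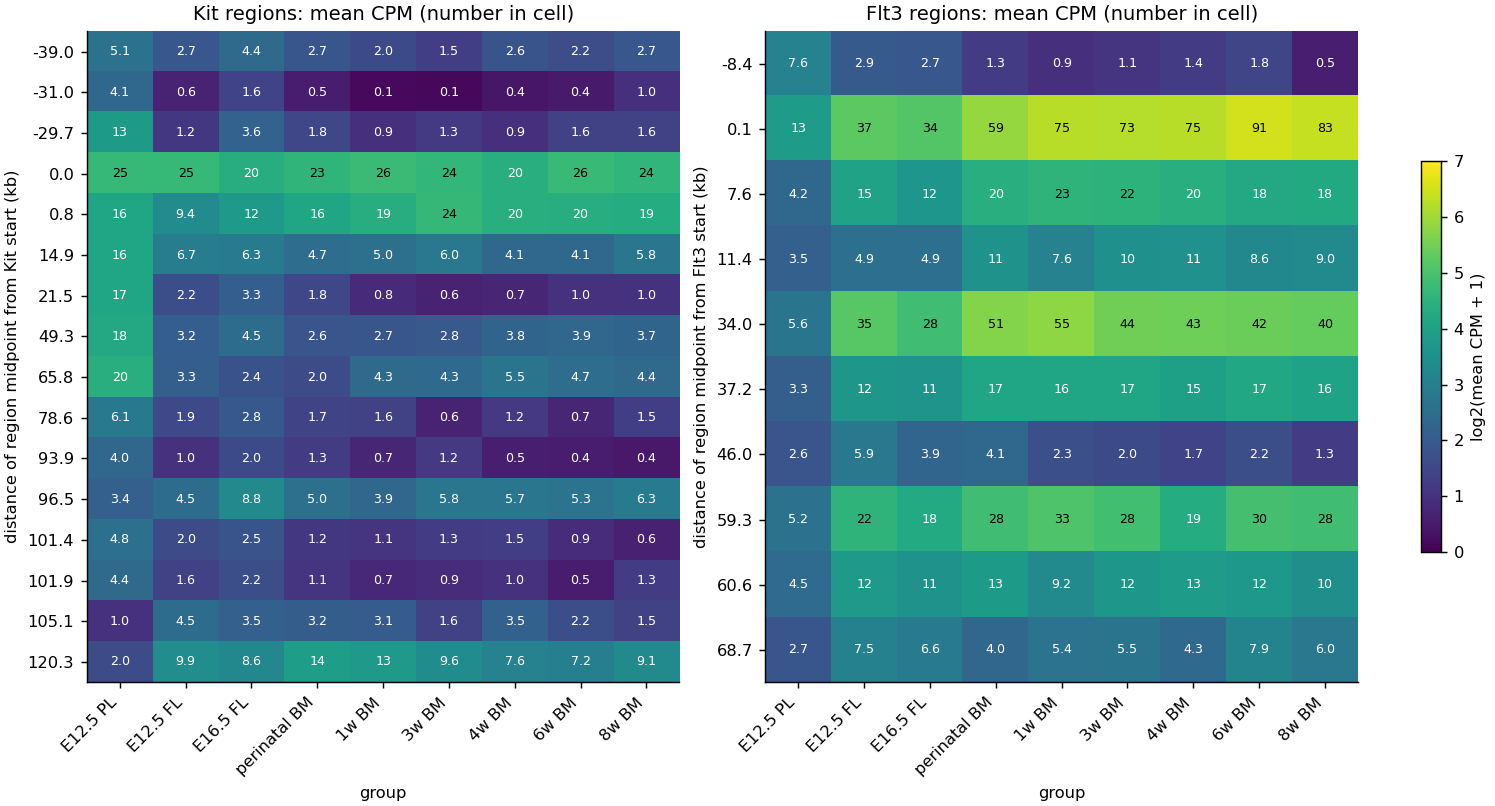
Mean TMM-scaled CPM of each Kit and Flt3 region (rows, by distance from the gene's start) in each of the 9 developmental groups (columns), with the mean printed in each cell and a colour scale of log2(mean CPM + 1). Most Kit distal rows are highest in E12.5 PL, among them 65.8 kb, while those at 96.5, 105.1 and 120.3 kb are not, and most Flt3 rows are lowest there, though not those at -8.4 and 46.0 kb.

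Over the 26 developmental libraries the log2(CPM + 1) of 2 Flt3 regions had a median Pearson r of 0.41 (45 pairs, -0.85 to 0.97), of 2 Kit regions 0.21 (120 pairs, -0.82 to 0.89), and of a Kit with a Flt3 region -0.41 (160 pairs, -0.91 to 0.85). These r describe points that share libraries, depth and group differences. Between any of the 9 groups 15 of 16 Kit regions and 10 of 10 Flt3 regions differed (edgeR quasi-likelihood test, Benjamini-Hochberg adjusted p under 0.05), where 64.4% of all regions tested did. The exception was the Kit start, with an adjusted p of 0.497. It ranged over single libraries from 14.0 CPM (E16.5 FL) to 32.8 CPM (1w BM), and every neighbouring pair of groups overlapped. Regions were called before they were counted, so some may be counted only because some groups are high there. The numbers of regions that differed, and the 64.4%, are no test apart from that choice.

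The comparison of E12.5 FL with E12.5 PL asks how progenitors of 1 embryonic age differ between the 2 sources. The Kit locus was less open in E12.5 FL, by -1.01 ± 0.13 on the log2 scale (SE; edgeR adjusted p = 1.63e-08, where 60.3% of 16634 genes were called, 16.2% higher and 44.1% lower), and the start region was not among the regions called lower. Summed distal regions had 101, 137 and 118 CPM in E12.5 PL and 40.3, 34.7 and 61.6 CPM in E12.5 FL, a difference of -1.39 ± 0.17 (adjusted p = 8.96e-09, where 55.1% of genes were called). Gene-end regions had 41.1, 43.4 and 38.9 CPM against 38.3, 29.7 and 34.8 CPM, a difference of -0.26 ± 0.17 that missed the threshold (adjusted p = 0.163, where 62.8% of genes were called). It was -0.48 with DESeq2's size factors (adjusted p = 0.00892, past the threshold), 0.027 on total counts and 0.31 with loess offsets, so its direction is not settled. The distal counts fell against the gene-end counts of the same libraries, from a ratio of 2.89 ± 0.374 to 1.33 ± 0.384 (log2 change -1.14 ± 0.26, limma adjusted p = 0.0012). That ratio was lower in 10.3% of genes tested, and the median gene's log2 change was 0.47.

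The Kit start overlapped between the groups, with 23.8, 24.3 and 26.6 CPM in E12.5 PL and 29.2, 23.4 and 22.1 CPM in E12.5 FL (log2 difference 0.00, 95% confidence interval -0.42 to 0.43). Under other scalings that difference was between -0.21 and 0.29, and -0.13 without E12.5 FL library 1, and passed the test in none of these. Of the 16 Kit regions 10 passed the test, 8 lower and 2 higher in E12.5 FL, where 26.4% of all regions were lower, 23.1% higher and 49.4% either. The median log2 fold change of the 16 was -1.38, beside 0.09 over all regions. In the authors' deposited peak lists, the Kit regions at -29.7, 21.5, 49.3, 78.6 and 93.9 kb had a peak in E12.5 PL and in no other developmental group. They may be among the regions counted only because E12.5 PL is high there. The number lower, the sums and the distal to gene-end ratio of Kit lean on such regions and are no test apart from that choice. The region of smallest p among those lower was the one at 65.8 kb (chr5:75640471-75641169), in the gene body. It had 18.8, 25.7 and 15.97 CPM in E12.5 PL and 2.26, 2.81 and 4.91 CPM in E12.5 FL, a fall of -2.60 ± 0.36 (adjusted p = 4.65e-08). Its E12.5 PL values do not overlap with any other developmental library, of which the highest had 6.76 CPM (4w BM).

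Other body regions were lower too. At 14.9 kb the level went from 16.8, 17.6 and 14.3 CPM to 5.21, 4.68 and 10.3 CPM (-1.27 ± 0.33, adjusted p = 0.0013). At 49.3 kb it went from 11.1, 26.1 and 16.2 CPM to 3.40, 2.11 and 4.17 CPM (-2.46 ± 0.43), and at 21.5 kb from 14.7, 9.68 and 25.7 CPM to 1.81, 1.17 and 3.68 CPM (-2.90 ± 0.51). Upstream of the gene, the region at -29.7 kb (chr5:75544856-75545777) had 8.66, 19.4 and 11.3 CPM in E12.5 PL and 0.453, 0.468 and 2.70 CPM in E12.5 FL, the largest fitted fall of the Kit regions (-3.44 ± 0.57). The 3 E12.5 PL libraries were above all 3 E12.5 FL libraries in each of these. The region at 0.8 kb, next to the start, had 17.3, 19.1 and 12.3 CPM against 9.06, 6.32 and 12.8 CPM (-0.79 ± 0.25, adjusted p = 0.00704). Those groups overlap, and the call was lost without E12.5 FL library 2 (adjusted p = 0.0763), without E12.5 PL library 2 (0.06099) and on total counts (0.0741).

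Both Kit regions that were higher in E12.5 FL lie past the gene's 3′ end. At 120.3 kb the level rose from 3.13, 1.35 and 1.62 CPM to 7.25, 8.20 and 14.2 CPM (2.27 ± 0.36, adjusted p = 1.01e-06). It was between 4.75 and 15.8 CPM in all libraries of the 7 other groups. At 105.1 kb (chr5:75679793-75680345) it went from 0.481, 1.80 and 0.694 CPM to 3.62, 1.40 and 8.59 CPM (2.14 ± 0.59), where the groups overlap and the call was lost without E12.5 FL library 3 (1.31, adjusted p = 0.100). The other 2 regions called lower were weak. The call at -31.0 kb (-2.65 ± 0.94, adjusted p = 0.0176) was lost without E12.5 FL library 1 or 2 (adjusted p = 0.0623 and 0.0631), and loess offsets took it to -0.30 (adjusted p = 0.837). The call at 93.9 kb (-1.95 ± 0.81, adjusted p = 0.0409) was lost with loess offsets (-0.18, adjusted p = 0.890), on total counts (-1.67, adjusted p = 0.0805), without any of 4 of the 6 libraries (up to 0.138) and with the replicate number as a block (-1.89, adjusted p = 0.0554). The 6 Kit regions that did not pass were the start and those at -39.0, 78.6, 96.5, 101.4 and 101.9 kb.

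Flt3 was more open in E12.5 FL at its start and through its gene body. The sum was 1.56 ± 0.13 higher on the log2 scale in E12.5 FL (edgeR adjusted p = 1.95e-13), with 1.46 ± 0.20 at the gene ends and 1.61 ± 0.13 in the distal regions (adjusted p = 9.12e-09 and 5.65e-13). The distal to gene-end ratio differed by 0.14 ± 0.23 and did not pass the test (limma adjusted p = 0.648, where 48.8% of genes were called). Of 10 regions 8 were higher and 1 lower, where 23.1% of all regions were higher and 26.4% lower, and the median log2 fold change was 1.48, beside 0.09 over all regions. The regions at 7.6, 11.4, 34.0, 37.2, 59.3, 60.6 and 68.7 kb had no peak in the E12.5 PL lists, though other developmental groups did. They may be among the regions counted only because groups other than E12.5 PL are high there. Their own calls, the number higher, the median and the sums of Flt3 are no test apart from that choice. The Flt3 start, with a peak in every list, is not among these regions. The start had 15.2, 11.0 and 13.9 CPM in E12.5 PL and 41.9, 34.2 and 33.6 CPM in E12.5 FL (1.45 ± 0.21, adjusted p = 2.10e-07). The body region at 34.0 kb moved most, from 3.37, 7.43 and 6.02 CPM to 28.3, 35.8 and 42.0 CPM (2.64 ± 0.23, adjusted p = 4.50e-13). Regions at 59.3, 7.6 and 37.2 kb rose by 2.09, 1.87 and 1.83, and in each of them the groups did not overlap. The 3′ gene-end region at 68.7 kb had 3.85, 0.450 and 3.70 CPM against 6.34, 7.73 and 8.34 CPM (1.49 ± 0.45, adjusted p = 0.00545), a call that was lost without E12.5 PL library 2 (adjusted p = 0.0613) and with loess offsets (0.996, adjusted p = 0.0861). The call at 46.0 kb (1.16 ± 0.48, adjusted p = 0.0386) was lost with DESeq2's size factors (adjusted p = 0.0913), in DESeq2 itself (0.0857), with loess offsets (0.75, adjusted p = 0.227) and without any of 4 of the 6 libraries (0.84 and adjusted p = 0.204 without E12.5 FL library 3).

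The single Flt3 region that was lower in E12.5 FL lies upstream at -8.4 kb (chr5:147408646-147409146). It had 6.73, 6.75 and 9.26 CPM in E12.5 PL and 3.85, 3.75 and 1.23 CPM in E12.5 FL (-1.35 ± 0.55, adjusted p = 0.0363). These groups do not overlap. The direction was the same without any of the 6 libraries, but the adjusted p then passed 0.05 for 5 of them, up to 0.171 without E12.5 FL library 3. The call was also lost on total counts (-1.07, adjusted p = 0.101) and with loess offsets (-0.75, adjusted p = 0.285). The region at 11.4 kb had 2.41 to 4.73 CPM against 4.45 to 5.21 CPM and did not pass (0.48, adjusted p = 0.286). Of the neighbours left out, Pan3 regions at -18.3 and -26.1 kb and a Urad region at 76.9 kb were lowest in E12.5 PL. A Cdx2 region at 100.9 kb was highest there, so the neighbours did not all go the same way. These distances are also from the Flt3 start. A low level in E12.5 PL was thus not confined to regions assigned to Flt3.

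Many genes differed in this comparison, and the balance depended on scaling. On region counts 22829 regions were higher and 26109 lower with TMM, 17315 and 31592 with DESeq2's size factors, and 31407 and 18250 on total counts. On sums per gene 2689 genes were higher and 7342 lower with the region table's TMM factors, and 4276 and 3965 with TMM on the sums themselves. The median gene's log2 fold change was -0.30 with the region table's TMM factors and between -0.51 and -0.01 under the other scalings. The Kit sum stayed between -1.22 and -0.67 and the Flt3 sum between 1.35 and 1.85, both past the threshold each time.

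**Figure D3:**
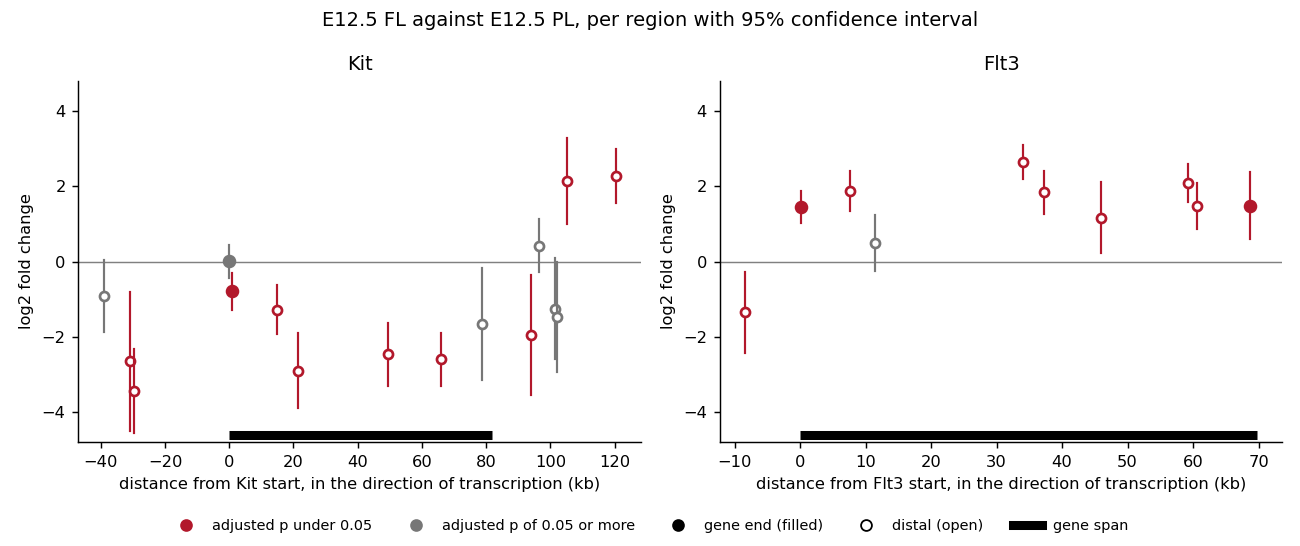
Log2 fold change of each Kit and Flt3 region between E12.5 FL and E12.5 PL (vertical axis, bars are 95% confidence intervals) against its distance from the gene's start in kb. Kit body and upstream regions lie below 0 with the start at 0.00 and 2 regions past the gene above 2, and all Flt3 regions except the one at -8.4 kb lie above 0.

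Markers of other cell types also differed in this comparison. All 7 endothelial genes had regions, and their summed level was 726.9 to 964.5 CPM in the E12.5 PL libraries and 411.4 to 449.0 CPM in E12.5 FL, with 6 of 7 lower in E12.5 FL and none higher, where 44.1% of all genes were lower and 16.2% higher. The same shares apply to each list of this paragraph. The 7 trophoblast genes summed to 392.0 to 565.3 CPM against 274.2 to 298.8 CPM, with 5 lower and none higher. The 5 mast cell genes with a region (Cpa3, Cma1, Tpsb2, Ms4a2 and Hdc; Mcpt4, Tpsab1 and Mrgprb1 had none) summed to 91.2 to 99.2 CPM against 98.1 to 104.0 CPM, with 2 higher and 1 lower. The 6 lymphoid-primed genes with a region (all but Ighm) summed to 150.6 to 159.8 CPM against 223.5 to 249.8 CPM, with 4 higher and 1 lower. The 6 dendritic cell genes summed to 431.6 to 453.4 CPM against 359.1 to 397.8 CPM, lower in E12.5 FL with no overlap, although 3 of them were higher and 1, Zbtb46 (-0.86 ± 0.12), was lower. The 4 hepatocyte genes with a region summed to 49.5 to 95.4 CPM against 50.5 to 66.5 CPM, and the 3 melanocyte genes with a region to 194.6 to 212.4 CPM against 160.5 to 183.6 CPM. No marker with a region was at 0 in a whole group. The part of these cell types in the Kit and Flt3 results was not tested.

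From E12.5 FL to E16.5 FL neither locus passed the test. No Kit or Flt3 region was called by edgeR, where 0.00101% of all regions were, and DESeq2 also called 0. An unadjusted p under 0.05 was found for 2 Kit regions and 0 Flt3 regions, and for 7190 of all 98996 regions. On sums 0.0% of genes were called. The Kit sum differed by 0.15 (95% interval -0.11 to 0.41) and the Flt3 sum by -0.23 (-0.46 to 0.00). The 2 Kit regions were those at 96.5 kb, with 4.42 to 4.68 CPM against 7.61 to 9.53 CPM (0.95 ± 0.33, adjusted p = 0.461), and at -29.7 kb. This comparison and those of E12.5 FL with E12.5 PL and with 8w BM share the E12.5 FL libraries.

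Between E16.5 FL and perinatal BM, the earliest of the BM groups, age and source change together and cannot be told apart. Flt3 was higher in perinatal BM. Its sum went from 132 to 208 CPM, by 0.65 ± 0.12 on the log2 scale (edgeR adjusted p = 1.44e-04), where 24.9% of genes were called and the median gene moved by 0.14. Gene-end regions rose by 0.65 ± 0.18 (26.8% of genes called) and distal regions by 0.66 ± 0.13 (13.7% of genes called). The gene-end call was lost with loess offsets (0.23, adjusted p = 0.412), without E16.5 FL library 1 (0.52, adjusted p = 0.0599) and without perinatal BM library 2 (0.33, adjusted p = 0.216). Of 10 Flt3 regions 4 were called, all higher, where 8.03% of all regions were called and 6.66% were higher. At 34.0 kb the level went from 25.1, 30.8 and 27.4 CPM to 44.4, 61.5 and 46.5 CPM (0.88 ± 0.19, adjusted p = 0.00181), with no overlap, a call that was lost with loess offsets (0.46, adjusted p = 0.173). At the start it went from 25.1, 37.0 and 39.6 CPM to 47.1, 83.4 and 46.2 CPM (0.81 ± 0.19, adjusted p = 0.00437). That call was lost with loess offsets (0.33, adjusted p = 0.357), without E16.5 FL library 1 (adjusted p = 0.0785) and without perinatal BM library 2 (0.46, adjusted p = 0.228). The other 2 were at 11.4 kb (1.11 ± 0.34, adjusted p = 0.028) and 7.6 kb (0.76 ± 0.23, adjusted p = 0.0302), and both calls were lost under several scalings and leave-outs. The number called fell to 0 with loess offsets and to 2 on total counts or with these groups fitted alone. It fell to 1 without E16.5 FL library 1 and to 2 without perinatal BM library 2 or 3.

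The Kit sum did not pass the test at this step (-0.092 ± 0.13, edgeR adjusted p = 0.655), though it did with loess offsets (-0.38, adjusted p = 0.0419). No Kit region was called by edgeR or by DESeq2. An unadjusted p under 0.05 was found for 2 of them (120.3 kb, 0.72, and 96.5 kb, -0.81), and for 21475 of all 98996 regions. Kit distal regions went from 55.8, 50.8 and 62.6 CPM to 38.9, 39.1 and 52.6 CPM, which did not pass the test (-0.38 ± 0.18, adjusted p = 0.152) but did on total counts (-0.56, adjusted p = 0.0314) and with these 2 groups fitted alone (-0.49, adjusted p = 0.0317). Over all regions this contrast gave 6598 higher and 1350 lower with TMM, and 2825 and 1948 on total counts. Lymphoid-primed markers summed to 188.6 to 241.1 CPM in E16.5 FL and 311.1 to 340.1 CPM in perinatal BM, with 4 of 6 higher and none lower, where 21.5% of all genes were higher. Dendritic cell markers summed to 365.5 to 393.2 CPM and 406.1 to 456.3 CPM, with 2 of 6 higher and none lower. The median log2 fold change was 0.62 for the lymphoid-primed list and 0.083 for the dendritic list, beside 0.14 over all genes. The dendritic median was thus below that of all genes. The part of both lists in the Flt3 rise was not tested.

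Within BM only 2 steps were tested as pairs of groups, and neither gave a call at either locus. The 3w, 4w and 6w groups entered no such comparison. From perinatal to 1w BM 0 of 26 regions were called (0.18% of all regions and 0.222% of gene sums). An unadjusted p under 0.05 was found for 1 Kit and 0 Flt3 regions, and for 8872 of all 98996. From 1w to 8w BM 0 of 26 were called (1.26% of all regions and 1.14% of gene sums). There 0 Kit regions and 1 Flt3 region had an unadjusted p under 0.05, beside 12390 of all 98996. DESeq2 called 0 in both steps as well. The Flt3 sum was most spread in 1w BM, at 276, 190 and 215 CPM, and its start in that group had 100.01, 60.9 and 63.9 CPM.

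The last developmental comparison sets 8w BM against E12.5 FL, where age and source again change together and cannot be told apart. The Flt3 start was 41.9, 34.2 and 33.6 CPM in E12.5 FL and 79.0, 94.0 and 76.6 CPM in 8w BM, a rise of 1.19 ± 0.19 (edgeR adjusted p = 4.56e-06) that held under every scaling (0.69 to 1.19). The gene-end sum rose by 1.02 ± 0.17 (adjusted p = 5.44e-06), where 34.0% of genes were called. Distal regions had 101, 114 and 119 CPM against 123, 133 and 113 CPM, a difference of 0.15 ± 0.12 that did not pass (adjusted p = 0.415, where 25.0% of genes were called) and was -0.053 on total counts and -0.15 with loess offsets. The ratio of distal to gene-end counts fell from 2.55 ± 0.403 to 1.38 ± 0.0707 (log2 change -0.87 ± 0.23, limma adjusted p = 0.0181), where 9.25% of genes fell and the median moved by -0.12. That call was lost without E12.5 FL library 2 or 3 or 8w BM library 2 (adjusted p = 0.06003, 0.0648 and 0.06897), and leaving out each library in turn gave log2 changes between -1.003 and -0.78. The whole Flt3 sum rose by 0.45 ± 0.12 (adjusted p = 0.00217, 35.9% of genes called), but not on total counts (0.25, adjusted p = 0.0607) or with loess offsets (0.074, adjusted p = 0.626). Lymphoid-primed markers summed to 223.5 to 249.8 CPM in E12.5 FL and 261.0 to 317.8 CPM in 8w BM (2 of 6 higher, none lower), dendritic cell markers to 359.1 to 397.8 CPM and 444.8 to 479.8 CPM (2 of 6 higher, none lower) and melanocyte markers to 160.5 to 183.6 CPM and 201.3 to 242.2 CPM (2 of 3 higher, none lower), where 27.0% of all genes were higher and 8.93% lower. Endothelial markers had 411.4 to 449.0 CPM in E12.5 FL and 353.5 to 367.7 CPM in 8w BM (2 of 7 lower, none higher), trophoblast markers 274.2 to 298.8 CPM and 238.5 to 246.7 CPM (2 of 7 lower, none higher) and hepatocyte markers 50.5 to 66.5 CPM and 43.1 to 49.8 CPM (2 of 4 lower, none higher). Mast cell markers had 98.1 to 104.0 CPM and 106.7 to 112.9 CPM, with 1 of 5 higher and 1 lower. The median log2 fold change was 0.010 for lymphoid-primed, 0.16 for dendritic, 0.54 for melanocyte and 0.36 for mast cell markers. It was -0.27 for endothelial, -0.23 for trophoblast and -0.43 for hepatocyte markers, beside 0.15 over all genes. The lymphoid-primed median was thus below that of all genes, and the dendritic median near it. The part of these 7 lists in the Flt3 rise was not tested.

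Of the 10 Flt3 regions 1 was higher and 2 were lower, where 10.7% and 5.7% of all regions were, 16.4% in all. The lower ones were weak. At 46.0 kb (chr5:147354244-147354744) the level was 4.08, 5.39 and 8.34 CPM in E12.5 FL and 0.818, 0.982 and 2.21 CPM in 8w BM (-2.15 ± 0.51, adjusted p = 0.00159). At -8.4 kb it was 3.85, 3.75 and 1.23 CPM against 0, 0.655 and 0.883 CPM (-2.46 ± 0.70, adjusted p = 0.00864), lost without 8w BM library 1 (adjusted p = 0.0678). The strong body regions did not pass the test: 34.0 kb had 28.3 to 42.0 CPM against 34.0 to 48.5 CPM (0.18), and 59.3 kb had 20.8 to 24.4 CPM against 23.2 to 31.5 CPM (0.33).

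The Kit sum did not pass the test (0.066 ± 0.13, adjusted p = 0.722, and between -0.25 and -0.020 under other scalings), nor did its start (-0.082 ± 0.22). The region at 0.8 kb was higher in 8w BM, at 21.5, 21.0 and 14.8 CPM against 9.06, 6.32 and 12.8 CPM (1.03 ± 0.24, adjusted p = 0.00148). The region at 105.1 kb was lower (-1.50 ± 0.54, adjusted p = 0.0443), a call that did not hold with loess offsets (-1.30, adjusted p = 0.106) or without any of 5 of the 6 libraries and was -0.67 without E12.5 FL library 3 (adjusted p = 0.533). Without 8w BM library 3, whose labels disagree, the Flt3 sum was 0.50 higher (adjusted p = 0.00231), the Flt3 start 1.24 and the Kit region at 0.8 kb 1.18, each past the threshold. Over all regions 10602 were higher and 5645 lower with TMM, and 6618 and 8779 on total counts.

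**Figure D4:**
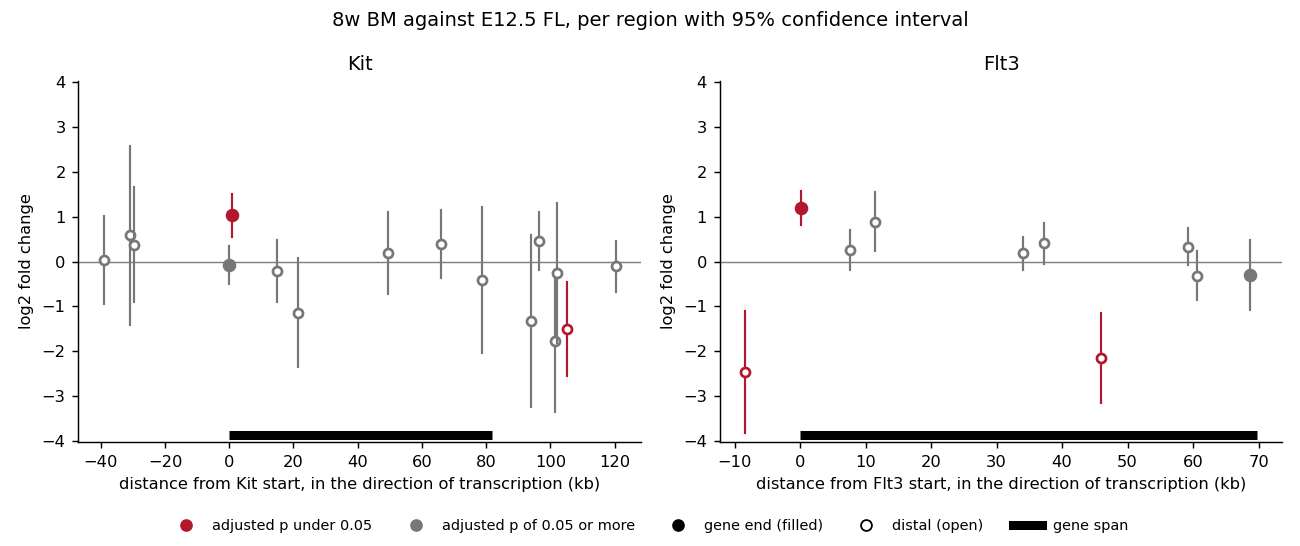
Log2 fold change of each Kit (left) and Flt3 (right) region between 8w BM and E12.5 FL (vertical axis, bars are 95% confidence intervals) against its distance from the gene's start in kb, with red for an adjusted p under 0.05, filled points for gene-end and open points for distal regions and a black bar for the gene. The red points are the Flt3 start at 1.19, Flt3 at 46.0 and -8.4 kb at -2.15 and -2.46, and Kit at 0.8 and 105.1 kb at 1.03 and -1.50.

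In culture the question is whether hepatocyte-conditioned medium changes the 2 loci within 2 h. The co-SHI libraries were deeper, with 14280440 to 20092146 counts against 7512258 to 11655458 in SHI, and the part of depth was not tested. No difference was called: 0 of 39 regions passed the test in edgeR, where 0.559% of all regions did, and DESeq2 called 0. An unadjusted p under 0.05 was found for 3 Kit and 2 Flt3 regions, a share near that of all regions (18103 of 144797). The Kit sum was 109, 113 and 114 CPM in SHI (112.4 ± 2.62) and 106, 100.1 and 104 CPM in co-SHI (103.2 ± 2.89), a difference of -0.12 (95% interval -0.26 to 0.01, adjusted p = 0.3004, 5.79% of genes called). The Flt3 sum was 189, 161 and 184 CPM against 186, 204 and 197 CPM, a difference of 0.13 (-0.01 to 0.28, adjusted p = 0.287). The Kit libraries do not overlap and the Flt3 libraries do. Kit distal regions differed by -0.20 ± 0.08 (adjusted p = 0.169, 3.33% of genes called).

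The 3 Kit regions with an unadjusted p under 0.05 lie in the gene body. At 14.7 kb SHI had 4.93, 7.31 and 5.85 CPM and co-SHI 3.24, 4.01 and 3.11 CPM (-0.78, adjusted p = 0.120). At 49.0 kb the levels were 6.22, 7.44 and 6.63 CPM against 5.08, 3.86 and 3.61 CPM (-0.68, adjusted p = 0.154), and at 65.9 kb 4.58, 4.39 and 6.37 CPM against 2.83, 3.27 and 2.82 CPM (-0.79, adjusted p = 0.134). They overlap the developmental regions at 14.9, 49.3 and 65.8 kb, which were among those lower in E12.5 FL than in E12.5 PL. They were picked by unadjusted p, at a share near that of all regions, and this overlap was not tested. The Kit start had 26.3, 29.6 and 28.2 CPM against 28.7, 27.3 and 27.7 CPM, and the Flt3 start 38.7, 31.5 and 34.0 CPM against 34.7, 33.8 and 33.9 CPM, both overlapping.

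**Figure D5:**
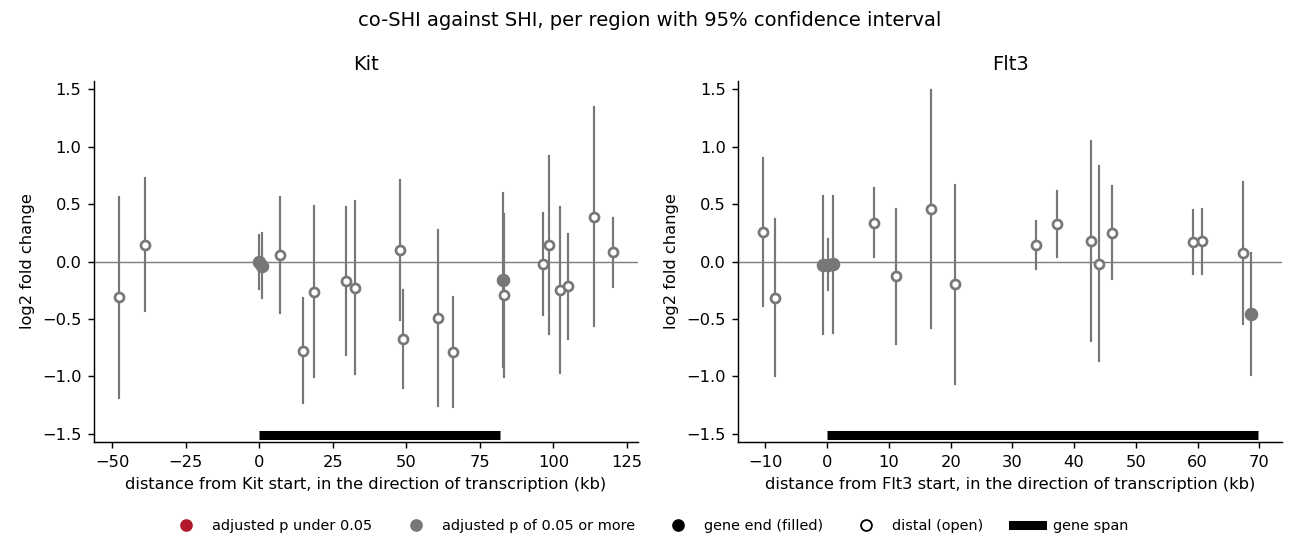
Log2 fold change of each Kit and Flt3 region between co-SHI and SHI (vertical axis, bars are 95% confidence intervals) against its distance from the gene's start in kb. None passed the test, so every point is grey, and the Kit regions at 14.7, 49.0 and 65.9 kb lie at -0.78, -0.68 and -0.79.

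The authors' deposited peak lists, called per library, describe the same reads. The regions counted had been called before deposit, so a peak in 1 group can be why a region was counted. The lists are therefore no separate support for the tests. The Kit regions at 21.5 and 49.3 kb, for example, had a peak in no developmental list outside E12.5 PL. List lengths ran from 9361 to 50806 peaks in the developmental libraries, so an absent peak also reflects how much was called. Kit regions at 14.9, 21.5, 49.3 and 65.8 kb each had a peak in 3 of 3 E12.5 PL lists and in 0 of 3 E12.5 FL lists, and the region at 120.3 kb in 0 and 2. The Kit start and the Flt3 start had a peak in every list. The Flt3 region at 34.0 kb had a peak in 0 of 3 E12.5 PL lists and in every other list, and the one at 59.3 kb in 0 of 3 E12.5 PL and 3 of 3 E12.5 FL lists. The Flt3 region at -8.4 kb had a peak in 2 E12.5 PL lists and in no other developmental list. Per library 6 to 8 Kit regions held a peak in E12.5 PL and 1 to 3 in E12.5 FL, against 1 to 2 and 4 Flt3 regions.

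The other genes of the pathway were taken from a list of 29 signalling genes: ligands, related receptors, adaptors, kinases and inhibitors, all of which had regions. Between E12.5 FL and E12.5 PL 6 were higher and 10 lower in E12.5 FL, with a median log2 fold change of -0.16 beside -0.30 over all genes, of which 16.2% were higher and 44.1% lower. Pik3cg, a catalytic subunit of phosphatidylinositol 3-kinase, was higher (1.15 ± 0.12), and Jak2 (-1.20 ± 0.14), the related receptor Pdgfra (-1.14 ± 0.16) and the adaptor Shc1 (-1.33 ± 0.19) were lower. Of the ligands, Kitl, which encodes stem cell factor, was lower (-1.14 ± 0.20, adjusted p = 4.31e-06) and Flt3l did not pass (0.26 ± 0.17, adjusted p = 0.172). In perinatal BM 10 were higher and 1 lower than in E16.5 FL (median 0.29 beside 0.14; 21.5% of all genes higher and 3.37% lower), among them Inpp5d, which encodes the inhibitory phosphatase SHIP-1 (0.67 ± 0.12), the ubiquitin ligase gene Cblb (0.79 ± 0.14) and the phosphatidylinositol 3-kinase subunits Pik3r1 (0.39 ± 0.11) and Pik3cd (0.42 ± 0.12). In 8w BM 10 were higher and 1 lower than in E12.5 FL (median 0.24 beside 0.15; 27.0% of all genes higher and 8.93% lower), among them Inpp5d (0.81 ± 0.12), the kinase Fes (0.83 ± 0.17), the inhibitor Socs1 (0.51 ± 0.11) and Pik3cd (0.49 ± 0.12). In culture the adaptor Grb2 alone of the 29 was called (-0.26 ± 0.08), where 5.79% of all genes were, so the count is no more than that share.

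Of 14 haematopoietic transcription factors and cofactors, among them regulators of Kit and Flt3, 6 were higher and 3 lower in E12.5 FL than in E12.5 PL (median 0.27 beside -0.30 over all genes, of which 16.2% were higher and 44.1% lower). Gata2, a GATA factor of stem cells and mast cells that binds Kit, was lower (-0.84 ± 0.13). The core-binding factor Runx1 (0.77 ± 0.12), the cofactor Lmo2 (0.81 ± 0.13) and the basic helix-loop-helix factor Lyl1 (0.95 ± 0.15) were higher. Against E16.5 FL 3 were higher in perinatal BM and none lower, a share near the 21.5% of all genes that were higher there (median 0.18 beside 0.14). They were Spi1, which encodes PU.1 (0.51 ± 0.13), Gata2 (0.37 ± 0.13) and Meis1 (0.31 ± 0.11). Against E12.5 FL 4 were higher in 8w BM and none lower, again near the 27.0% of all genes that were higher (median 0.062 beside 0.15). They were Lyl1 (0.68 ± 0.14), Cebpa (0.51 ± 0.12), Spi1 (0.33 ± 0.13) and Lmo2 (0.31 ± 0.12). In culture Tal1 alone of the 14 was called (0.25 ± 0.07), a share near the 5.79% of all genes called there. From E12.5 to E16.5 FL and in the 2 BM steps tested no member of either list was called by edgeR. These are accessibilities of the genes' own regions, not levels of their products, and the counts of both lists were made with the region table's TMM factors alone.

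By mean log2 CPM over the 9 groups, the 5 genes whose summed regions were most like those of Kit among 6773 genes included Actn1 (Pearson r 0.991), Lima1 (0.990), Tspan9 (0.988) and Gata6 (0.988). Without E12.5 PL the r of these 4 genes with Kit was between 0.597 and 0.747, and 0 of them stayed among the 5 highest. The 5 genes most like Flt3, among 6764 genes, were P2ry12 (0.998), Arhgap15 (0.997), Nckap1l (0.997), Bcl11a (0.996) and Map4k1 (0.995). The 5 Flt3 genes kept an r between 0.967 and 0.994 over the 8 groups, though 0 of them stayed among the 5 highest.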

How the data were processed

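Regions of open chromatin were measured by ATAC-seq in 26 developmental and 6 cultured mouse libraries. The authors' deposited tables give whole-number counts per region on mm10, 1 table for each experiment, and their deposited peak lists give, for each peak of a library, a score, a fold enrichment and −log10 p and q values. Among the tools in the submitters' processing notes are DiffBind, HOMER, MACS2, Trim Galore and deepTools, without versions, and the step each served is not given in the sources used here. The regions had been called before deposit and span 501 to 2971 bp (developmental) and 501 to 3152 bp (cultured), so accessibility elsewhere was not counted.

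Regions were assigned to 20143 named protein-coding genes of RefSeq's GRCm38.p6 table, and 13.4% (developmental) and 17.3% (cultured) went to no gene. Counts were scaled by TMM on all regions, also for sums per gene. Regions and sums with too few counts were left out (filterByExpr, minimum count 10). Differences were tested two-sided with edgeR 4.0.16 (quasi-likelihood) in R 4.3.3, the 9 developmental groups in one fit and the 6 cultured libraries in another, each without a block, and with limma 3.58.1 on log2 ratios of distal to gene-end counts (prior count 2). Benjamini-Hochberg adjustment ran over all regions or genes of a comparison, with a threshold of 0.05, and the scripts were tested on simulated counts. A peak was assigned to a region when they shared a base. Levels were summarised with pandas 2.3.3.

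Alternatives were DESeq2 1.42.0, its size factors in edgeR, total counts, loess offsets, no filter, a replicate block, a 10 kb window, gene ends of 2 kb, prior counts of 0.5 and 8, the groups compared alone and each library left out. TMM on sums per gene, and alternatives for gene-end and distal sums, were added after seeing the data. For each pair of libraries in a group a chi-square value of their counts was averaged over the regions with enough counts. These averages ran from 2.12 to 5.96 over the developmental pairs and from 2.21 to 3.70 over the cultured pairs, above what sampling alone gives. Every library was kept as its own sample.

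The members, gene lists and tests were chosen with earlier results of these data known. Given in full were gene-end regions, the 5 strongest regions of each gene and, in each comparison, the called region of smallest p in each direction, the 5 genes of most similar pattern (at least 3 regions, above-median level, over 1 Mb away), and at most 4 called members of a list. Other regions, and Kitl and Flt3l, were named after their values were seen. One gene that this rule names is not reported here.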

Additional observations from a re-analysis of the deposited data

How the results depend on the processing

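Over sums, ratios and numbers of called regions, 319 values under other settings and 295 with a library left out kept their direction and side of the threshold (counts of regions within 1.5 times), while 17 and 15 reversed, 8 and 12 no longer passed or fell in number, and 4 and 2 newly passed. These follow as log2 fold changes, and the cause was not tested. In E12.5 FL relative to E12.5 PL the Kit gene-end sum was -0.48 with DESeq2's size factors, 0.027 on total counts and 0.31 with loess offsets, and the Kit start was -0.21 both with DESeq2 and with its size factors. In E16.5 relative to E12.5 FL the Kit sum was -0.0096 in a 10 kb window. In perinatal BM relative to E16.5 FL the Kit sum was -0.38 (loess) and 0.028 (10 kb window), the Kit gene-end sum -0.040 (loess), the Kit distal sum -0.56 (total counts) and -0.49 (groups alone), and the Flt3 gene-end sum 0.23 (loess), and 2 (groups alone), 0 (loess) and 2 (total counts) Flt3 regions were called. In 1w relative to perinatal BM the Kit sum was -0.014 (total counts), -0.048 (loess) and -0.026 (TMM on sums). In 8w BM relative to E12.5 FL the Kit sum was -0.020 (DESeq2, and its size factors), -0.13 (total counts), -0.25 (loess), -0.093 (TMM on sums) and -0.0096 (groups alone), the Kit gene-end sum -0.023 (loess), the Flt3 sum 0.25 (total counts) and 0.074 (loess) and the Flt3 distal sum -0.053 (total counts) and -0.15 (loess), and 1 Kit region was called with groups alone and 1 with loess.

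With a library left out, the Kit start ran from -0.13 to 0.080 and the Flt3 distal to gene-end ratio from -0.10 to 0.41 in E12.5 FL relative to E12.5 PL. In perinatal BM the Kit ratio ran from -0.92 to -0.47, the Kit gene-end sum from 0.14 to 0.48, the Flt3 ratio from -0.072 to 0.25, the Flt3 gene-end sum from 0.33 to 0.79 and the Flt3 regions called from 1 to 3. In 1w relative to perinatal BM the sums ran from -0.080 to 0.11 (Kit) and -0.028 to 0.27 (Flt3). In 8w relative to 1w BM the Kit sum ran from -0.10 to 0.088, the Kit ratio from -0.082 to 0.32 and the Flt3 sum from -0.21 to 0.056. In 8w BM relative to E12.5 FL the Kit sum ran from -0.072 to 0.22, the Kit distal sum from -0.32 to 0.12, the Kit start from -0.16 to 0.044 and the Flt3 ratio from -1.003 to -0.78, and 1 to 2 Kit regions were called.

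Same-numbered libraries correlated between -0.033 and 0.15 in their deviations from group means, so the numbers were not taken as pairs, and 0 to 4 of 6 samples correlated best with their own number. With the replicate number as a block the E12.5 FL to E12.5 PL sums were -1.01 (Kit) and 1.56 (Flt3), and no sum or ratio changed its call. Numbers of called regions stayed within 1.5 times, though the Kit region at 93.9 kb lost its call in that comparison (-1.89, edgeR adjusted p = 0.0554). Leaving E12.5 PL out kept 0 of the 5 genes most like Kit and 0 of those most like Flt3. The peaks counted over libraries and Kit regions were 141, 124 at a −log10 q of 5 or more and 139 sharing most of a peak.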

Other observations

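The cultured count table also holds 3 columns named for E12.5 FL, which enter no comparison of the report. Their totals were 16097639, 22061805 and 16198802 counts. Per 1000000 counts of a column, the Kit regions of that table summed to 114.9, 114.5 and 111.9 and the Flt3 regions to 240.3, 232.2 and 220.5. The Kit start had 26.0, 23.7 and 24.6 and the Flt3 start 48.1, 44.8 and 42.3 on the same scale. In the developmental table, with its own regions, the E12.5 FL libraries had Kit sums of 87.4, 71.8 and 106.8 and Flt3 sums of 165.5, 174.0 and 177.9 per 1000000 counts of the column. Regions differ between the tables, so these values are given side by side and not compared.

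Ly6a, the gene of Sca-1, a further criterion of the sort, had 14.7 to 24.8 CPM in the SHI libraries and 9.54 to 11.4 CPM in the co-SHI libraries, which do not overlap. Ptprc overlapped there, with 124.5 to 141.7 CPM against 125.1 to 148.7 CPM.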
